A study of Mus musculus with 6 samples.

Results

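The transcription factors that direct and keep the identity of lymphatic endothelial cells (LECs), the cells lining lymphatic vessels, were followed in LECs of the mouse dura mater after delivery of the lymphatic growth factor VEGF-C. They were 10 genes, Prox1, Sox18, Nr2f2, Foxc2, Gata2, Tbx1, Hhex, Erg, Fli1 and Foxo1, chosen by symbol from tables of 55401 genes, and each symbol matched 1 row. The comparison asked whether VEGF-C moved their transcript levels in dural LECs. Bulk RNA sequencing was available for 6 libraries, 3 of each group (AAV-CTRL and AAV-VEGF-C), from 3 experiments that each gave 1 library of each group, and each library pooled the meninges of 10 to 12 animals. The mice were wild type, and males of the C57BL/6J strain were injected once into the cisterna magna at 4 weeks of age with an adeno-associated virus (AAV). The AAV-VEGF-C vector encoded full-length mouse VEGF-C. The AAV-CTRL vector encoded immunoglobulin-like domains of its receptor that do not bind VEGF-C, so the controls carried a virus and a secreted protein as well. LECs were sorted from the skullcap dura as CD45-, CD31+, PDPN+ and LYVE-1+ cells, and the interval between injection and this sort is not given in the sources used here.

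During development, SOX18 and NR2F2 switch on Prox1 in venous endothelium, and PROX1 then commits the cells to the lymphatic lineage and keeps up the VEGF-C receptor gene Flt4. FOXC2 and GATA2 shape collecting vessels and valves, TBX1 and HHEX act on Flt4 and on the VEGF-C pathway, and the ETS factors ERG and FLI1 hold endothelial identity in blood and lymphatic vessels alike. FOXO1 restrains endothelial growth.

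Stretches upstream of 3 of these genes are given here, for Prox1 as the factor that defines the lineage, and for Hhex and Foxo1 as the members whose groups did not overlap in normalised expression. Each runs 5′ to 3′ on the strand of its gene, from 250 to 51 bases before the RefSeq start (GRCm38.p6), and the capitals mark GGAA or its complement TTCC, the core that ETS factors such as ERG and FLI1 bind. The stretches lie at chr1:190170878-190171077 on the minus strand for Prox1, at chr19:37434591-37434790 on the plus strand for Hhex, and at chr3:52268087-52268286 on the plus strand for Foxo1.
Prox1: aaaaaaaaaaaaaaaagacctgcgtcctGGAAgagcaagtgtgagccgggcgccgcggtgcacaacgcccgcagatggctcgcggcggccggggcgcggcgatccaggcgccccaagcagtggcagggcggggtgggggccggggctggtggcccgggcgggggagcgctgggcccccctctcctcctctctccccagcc
Hhex: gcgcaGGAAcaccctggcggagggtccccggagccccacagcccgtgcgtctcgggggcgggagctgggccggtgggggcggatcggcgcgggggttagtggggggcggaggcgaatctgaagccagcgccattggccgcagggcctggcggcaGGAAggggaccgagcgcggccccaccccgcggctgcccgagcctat
Foxo1: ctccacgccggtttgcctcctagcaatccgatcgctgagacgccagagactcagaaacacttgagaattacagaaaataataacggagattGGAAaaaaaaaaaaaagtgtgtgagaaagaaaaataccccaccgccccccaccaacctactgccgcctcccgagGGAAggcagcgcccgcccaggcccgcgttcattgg

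The RefSeq promoter table matched 7 of the 10 genes. Sox18, Foxc2 and Fli1 are named only. In the windows from 250 bases before to 50 bases after the start, GGAA was found on one or the other strand in 7 of 7 members, and in 95.98% of 32851 promoters of the same length. The SOX letters AACAAT, the GATA letters AGATAA, the nuclear receptor half-site AGGTCA and the forkhead letters TGTTTAC were found on neither strand of the 7 windows. They were found in 10.7%, 11.2%, 16.3% and 3.65% of all promoters. The windows of the members held a median of 25 CpG dinucleotides against 7 over all promoters, from 2 in Nr2f2 to 37 in Hhex. A match in these letters is a description of the sequence and not a bound site.

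In the GENCODE annotation of GRCm38, Prox1 lies on chromosome 1 (190118035 to 190170714, minus strand), Hhex on chromosome 19 (37434810 to 37440731, plus strand) and Foxo1 on chromosome 3 (52268336 to 52353221, plus strand). All 10 are protein-coding genes. Exons of Prox1, Nr2f2 and Foxo1 overlap a noncoding gene on the other strand (Prox1os, B130024G19Rik and Gm20402). Because the use of strand in counting is not given in the sources used here, the values of these 3 genes are uncertain to that extent.

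The libraries differed widely in depth, taken as the total of estimated counts over all genes, which ranged from 6530269 to 12399498 in AAV-CTRL and from 564475 to 3261935 in AAV-VEGF-C. Depth and treatment cannot be told apart, because every AAV-VEGF-C library was shallower than every AAV-CTRL library. The 8 lymphatic markers (Prox1, Flt4, Lyve1, Pdpn, Pecam1, Reln, Mmrn1 and Ccl21a) had counts in every library. The 7 fibroblast markers summed to more than the lymphatic markers in 5 of 6 libraries, all but AAV-VEGF-C 1, in TPM, a level that corrects for gene length, rescaled to protein-coding genes as described further on. Background reads were followed in 2187 genes of families without a known role in endothelium, such as olfactory receptors, which took 164.8 to 298.4 CPM (counts per 1e6 counts of a library) in AAV-CTRL and 2996 to 7190 CPM in AAV-VEGF-C. Of 7 neural and glial markers, edgeR called 2 higher in AAV-VEGF-C, where it called 10.5% of all tested genes higher. These were Tubb3 and Rbfox3, each under 4 TPM in all libraries, and 0 to 1 markers were called when any 1 of the 6 libraries was left out. The same test called 0 of 8 blood endothelial, 0 of 6 tested leukocyte and 0 of 7 mural markers, of which 0, 0 and 1 passed an unadjusted p under 0.05 and DESeq2 called 0, 0 and 1. Still, 8 of 8, 3 of 6 and 7 of 7 of them had log2 fold changes below 0. Their medians were -1.18, -0.013 and -0.75, against -0.0037 over all tested genes. With no filter, 5 blood endothelial, 0 leukocyte and 3 mural markers were called lower, where 1175 of 44563 genes were. In bulk samples, fewer cells of a type and less RNA per cell cannot be told apart.

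Levels of different genes were compared by the TPM the authors deposited, which correct for gene length. In AAV-CTRL, Nr2f2 was the most abundant of the 10, with 30.2 ± 15.3 TPM (SD, n = 3), and Foxc2 (23.4 ± 7.75), Fli1 (20.5 ± 12.8) and Erg (13.5 ± 6.74) followed. Sox18 (11.7 ± 12.8), Foxo1 (10.1 ± 2.78), Prox1 (9.33 ± 4.16), Gata2 (8.47 ± 8.65) and Tbx1 (8.39 ± 5.41) came next, and Hhex was lowest with 5.45 ± 3.14 TPM. The lowest and highest libraries of each gene overlapped those of its neighbour in this order, so that no 2 neighbours differed beyond their spread. In AAV-VEGF-C the order was led by Hhex (12.8 ± 8.79 TPM), Fli1 (11.6 ± 7.43) and Nr2f2 (11.0 ± 2.64). Gata2 was lowest with 1.74 ± 1.11 TPM, above the mean of 0.331 to 0.360 TPM per gene of the families without a known endothelial role.

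The deposited TPM were lower in AAV-VEGF-C for 9 of 10 members, and the groups did not overlap for 5 of them, Sox18, Nr2f2, Foxc2, Erg and Foxo1. Over all tested genes, the same was true of 36.4%. Among the 7234 tested genes whose mean TPM reached 5, that share was 61.5%, and the median log2 ratio of the group means was -1.37 there and -1.54 for the members. Most TPM lay outside protein-coding genes, which took 16.6% to 29.1% of the TPM of AAV-CTRL libraries and 6.20% to 13.97% in AAV-VEGF-C. MicroRNA genes took 43.9%, 31.5% and 0.943% in AAV-CTRL 1, 2 and 3, against 48.9% to 78.0% in AAV-VEGF-C. All other gene types took 39.5% to 70.0%, highest in AAV-CTRL 3, against 15.8% to 37.2%. When TPM were rescaled so that protein-coding genes had the same total in each library, a setting chosen after the data were seen, 6 members had a lower and 4 a higher mean in AAV-VEGF-C. Only Foxo1 of the 10 was then lower with no overlap (13.5% of all tested genes), and only Hhex was higher with no overlap (21.4%). Values are therefore compared between libraries below as normalised CPM, which are CPM after scaling by factors of the trimmed mean of M-values (TMM). On that scale too, Foxo1 was the member lower with no overlap (17.6% of all tested genes) and Hhex the member higher with no overlap (22.3%).

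**Figure D1:**
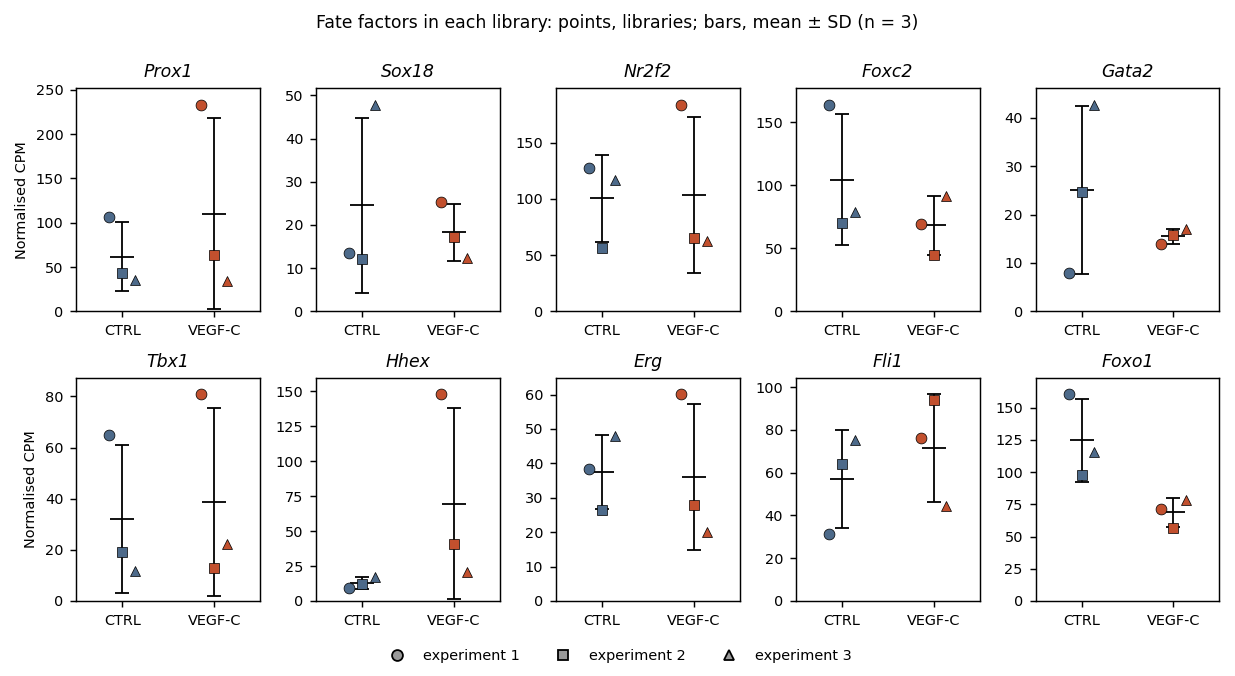
Normalised CPM (vertical axes, from 0) of the 10 fate factors in the 3 AAV-CTRL (blue) and 3 AAV-VEGF-C libraries (red); the symbol gives the experiment, and bars are the mean ± SD. Foxo1 of AAV-VEGF-C lies below all controls and Hhex above all of them, and the first experiment is highest in both groups for Prox1, Nr2f2 and Tbx1.

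All 10 members were tested by edgeR's quasi-likelihood test with Benjamini-Hochberg adjustment over 17459 genes, with a threshold of 0.05. It called 0 of 10 higher and 0 of 10 lower in AAV-VEGF-C, where 10.5% of all tested genes were called higher (1835 genes) and 0.659% lower (115 genes, or 362 with the experiment as a replicate block). These counts rested on single libraries: 0 genes were called higher without AAV-CTRL 2 or AAV-CTRL 3, 8 without AAV-VEGF-C 2 and 320 without AAV-VEGF-C 3, and leaving out any 1 of the 6 libraries left 0 to 48 called lower. At an unadjusted p under 0.05, 1 member was higher, Hhex (19.0% of all genes), and 1 was lower, Foxo1 (9.11%). DESeq2, the tool of the study, called Hhex higher and no member lower, and limma on log2 TPM and voom with sample weights each called 0 members in either direction. The median log2 fold change of the members was -0.06, against -0.0037 over all tested genes and -0.41 over those whose mean TPM reached 5. Folds are given below relative to the TMM scaling, so a gene of middle level had a log2 fold change of about that last value.

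**Figure D2:**
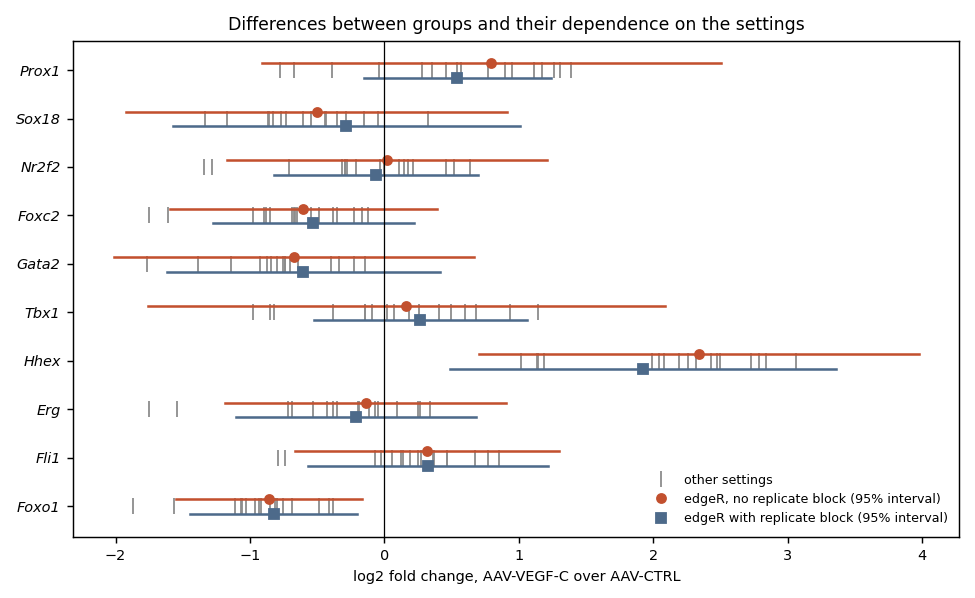
Log2 fold change of each fate factor, AAV-VEGF-C over AAV-CTRL (horizontal axis), by edgeR without (circles) and with (squares) the experiment as a replicate block, with unadjusted 95% intervals; ticks are the other settings tried. The intervals of 8 genes include 0, those of Hhex lie above it and those of Foxo1 below it.

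Prox1, the master regulator of the lymphatic lineage, had normalised CPM of 106.3, 43.1 and 35.5 in AAV-CTRL 1, 2 and 3. It had 233.4, 63.1 and 34.2 in AAV-VEGF-C 1, 2 and 3. AAV-VEGF-C 1 stood highest of all libraries and AAV-VEGF-C 3 lowest, so that the AAV-VEGF-C values spanned those of AAV-CTRL. The log2 fold change was 0.79 ± 0.74 (SE, 95% interval -0.91 to 2.50, edgeR adjusted p = 0.524). Without AAV-VEGF-C 1 it was -0.39 ± 0.52, so its direction rested on that library. Prox1 was therefore not shown to differ, and the interval covers a fall by 0.91 as well as a rise of 2.50 on the log2 scale. Within its library, Prox1 lay above 63.3% to 96.7% of all protein-coding genes in AAV-VEGF-C and above 67.0% to 88.6% in AAV-CTRL. Genes without a count are included in these shares.

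Sox18, which switches on Prox1, had 13.5, 12.2 and 47.9 normalised CPM in AAV-CTRL, against 25.4, 17.2 and 12.4 in AAV-VEGF-C. AAV-CTRL 3 stood above all others, and AAV-VEGF-C 1 and 2 lay above AAV-CTRL 1 and 2, so that the groups overlapped. Its log2 fold change was -0.50 ± 0.61 (edgeR adjusted p = 0.636), and 0.32 without AAV-CTRL 3. Nr2f2, the venous nuclear receptor that partners PROX1, had 127.8, 56.6 and 117.1 normalised CPM in AAV-CTRL, against 183.9, 65.0 and 62.4 in AAV-VEGF-C. The groups overlapped, with a log2 fold change of 0.02 ± 0.51 (95% interval -1.17 to 1.21, edgeR adjusted p = 0.989), and -0.71 without AAV-VEGF-C 1. Summed over 8 blood endothelial markers, the rescaled TPM were 789.5, 1046 and 2091 in AAV-CTRL, against 892.8, 864.6 and 541.7 in AAV-VEGF-C. AAV-CTRL 3, the library highest in Sox18, was also highest in these markers, and Sele of the 8 was at 0 in AAV-VEGF-C 1. Their part in the Sox18 values was not tested.

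Foxc2, a regulator of lymphatic valves that mesenchymal cells of the meninges also use, had 163.8, 69.7 and 79.1 normalised CPM in AAV-CTRL, against 69.3, 44.4 and 91.2 in AAV-VEGF-C. Its log2 fold change was -0.60 ± 0.43 (95% interval -1.60 to 0.39, edgeR adjusted p = 0.398), and it was lower in AAV-VEGF-C in 2 of 3 experiments. The summed rescaled TPM of the 7 fibroblast markers (Col1a1, Col1a2, Col3a1, Dcn, Lum, Pdgfra and Ogn) were 13390, 5304 and 6508 in AAV-CTRL, against 4266, 3488 and 6260 in AAV-VEGF-C. Foxc2 and these markers had the same order of libraries within each group. None of the 7 was at 0 in any library, and 2 of the 7, Dcn and Ogn, were called lower in AAV-VEGF-C by edgeR, where 0.659% of all tested genes were. With the replicate block, 4 of the 7 were called lower, and 0 of the 7 were when any 1 of the 6 libraries was left out. Their part in the Foxc2 values was not tested.

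Gata2, which acts in lymphatic valves and in blood progenitors, had 7.87, 24.7 and 42.7 normalised CPM in AAV-CTRL, against 13.9, 15.8 and 17.0 in AAV-VEGF-C. All AAV-VEGF-C values lay inside the AAV-CTRL range, which was 5.43-fold wide. The log2 fold change was -0.68 ± 0.58 (95% interval -2.02 to 0.66, edgeR adjusted p = 0.488). Gata2 had only 6 counts in AAV-VEGF-C 1, or 10.6 CPM with a 95% Wilson interval of 4.87 to 23.2, and such intervals cover counting error only. The value turned on the controls, with a log2 fold change of -1.14 ± 0.39 (edgeR adjusted p = 0.102) without AAV-CTRL 1 and of -0.15 ± 0.55 (0.898) without AAV-CTRL 3.

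Tbx1, a T-box factor known to act on Flt4, had 65.0, 19.2 and 11.8 normalised CPM in AAV-CTRL, against 80.9, 12.9 and 22.4 in AAV-VEGF-C. The first experiment stood above the others in both groups, and the groups overlapped. Its log2 fold change was 0.16 ± 0.83 (95% interval -1.76 to 2.08, edgeR adjusted p = 0.931), and -0.85 without AAV-VEGF-C 1.

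Hhex, a homeobox factor that acts upstream of VEGF-C signalling and of Prox1, was the member with the largest difference. It had 9.15, 12.3 and 17.5 normalised CPM in AAV-CTRL, against 147.9, 40.9 and 20.4 in AAV-VEGF-C 1, 2 and 3. Every AAV-VEGF-C value lay above every AAV-CTRL value, but the lowest AAV-VEGF-C library was close to the highest AAV-CTRL library. The log2 fold change was 2.34 ± 0.71 (95% interval 0.71 to 3.98, unadjusted p = 0.0110, edgeR adjusted p = 0.0761), and the two-sided exact permutation p was 0.1, the smallest that 3 libraries against 3 allow. In normalised CPM, Hhex was higher in AAV-VEGF-C in 3 of 3 experiments, by log2 ratios of 4.01, 1.73 and 0.23 in experiments 1, 2 and 3. In deposited TPM it was higher in 2 of 3, with a log2 ratio of -0.62 in experiment 3, and the groups overlapped. Without AAV-VEGF-C 1 the log2 fold change was 1.14 (adjusted p = 0.147), so that library carried much of the size. The adjusted p ranged from 0.000434 to 0.304 over the alternatives and was under 0.05 in 3 of them, DESeq2 (0.0120), scaling on the 2000 most abundant genes (0.0416) and no filter (0.000434).

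The counts behind Hhex were 57, 97 and 258 in the controls and 64, 57 and 71 after AAV-VEGF-C. In AAV-VEGF-C the counts thus varied 1.25-fold while the library totals varied 5.78-fold, so the CPM fell from the shallowest to the deepest library. In CPM, the 95% Wilson intervals were 88.8 to 144.8, 30.7 to 51.5 and 17.3 to 27.5 in AAV-VEGF-C 1, 2 and 3, against 18.4 to 23.5 in AAV-CTRL 3, the highest control. The interval of AAV-VEGF-C 3 overlapped that of AAV-CTRL 3, whereas those of the other AAV-VEGF-C libraries did not. Of all protein-coding genes, those without a count included, Hhex lay above 99.0%, 90.7% and 78.6% in AAV-VEGF-C 1, 2 and 3. It lay above 62.6%, 65.5% and 70.8% in AAV-CTRL 1, 2 and 3. Its deposited TPM were 5.88 to 22.7 in AAV-VEGF-C and 3.07 to 9.01 in AAV-CTRL. The families without a known endothelial role had a mean of 0.331 to 0.360 TPM per gene in AAV-VEGF-C. That mean over 2187 genes sets no ceiling for 1 gene, and the part of such reads in Hhex was not tested. The part of depth in the Hhex difference cannot be told apart from that of treatment.

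Prox1 shared this flat count in AAV-VEGF-C, with 101, 88 and 119 counts, a 1.35-fold range. The summed counts of the 8 lymphatic markers were 1672, 1554 and 2277, a 1.47-fold range. Foxo1, with 31, 79 and 272 counts (8.77-fold), Foxc2, with 30, 62 and 317 (10.6-fold), and Gata2, with 6, 22 and 59 (9.83-fold), varied more than the library total. The other members lay between, with Erg at 2.68-fold, Nr2f2 at 2.73-fold, Sox18 at 3.91-fold, Tbx1 at 4.33-fold and Fli1 at 4.67-fold. In AAV-CTRL the totals varied 1.90-fold, and Prox1 counts of 662, 339 and 524 were highest in the shallowest library. Counts of Gata2 (49, 194 and 631) and Hhex (57, 97 and 258) were highest in the deepest.

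**Figure D3:**
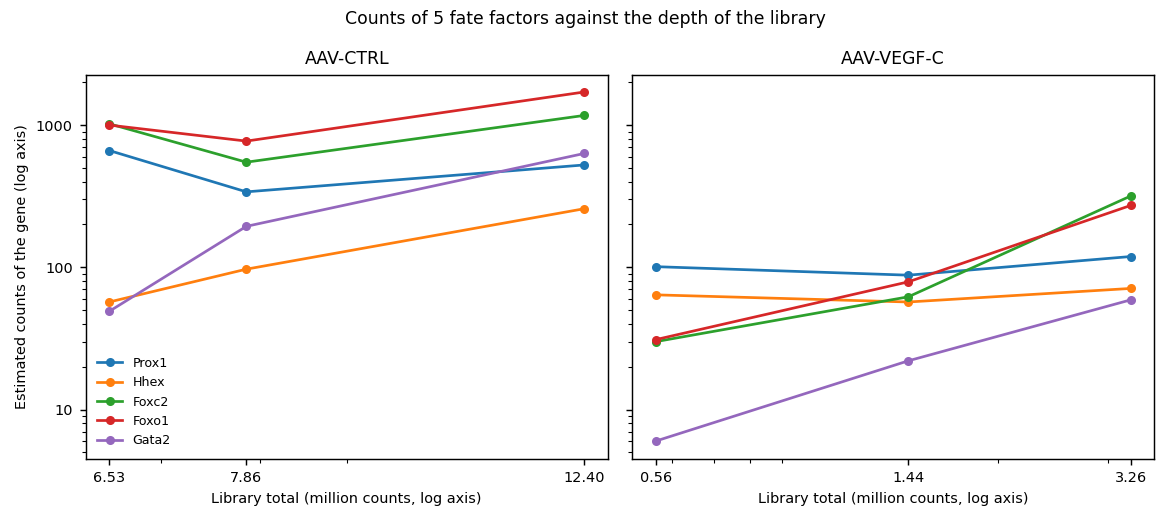
Estimated counts of 5 fate factors (vertical axis, log scale) against the library total on a log axis marked in 1e6 counts, with the groups in separate panels and 1 point per library. In AAV-VEGF-C, Prox1 stays between 88 and 119 counts and Hhex between 57 and 71, while Foxo1, Foxc2 and Gata2 rise with depth.

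Erg, an ETS factor of endothelial identity, had 38.2, 26.5 and 48.0 normalised CPM in AAV-CTRL, against 60.1, 27.9 and 20.0 in AAV-VEGF-C. The AAV-VEGF-C values spanned the AAV-CTRL values, with a log2 fold change of -0.14 ± 0.45 (95% interval -1.19 to 0.91, edgeR adjusted p = 0.882). Fli1, an ETS factor that blood cells also use, had 31.2, 64.1 and 75.2 normalised CPM in AAV-CTRL, against 76.3, 93.9 and 44.3 in AAV-VEGF-C. The groups overlapped, with a log2 fold change of 0.32 ± 0.42 (95% interval -0.66 to 1.30, edgeR adjusted p = 0.669). The summed rescaled TPM of 8 leukocyte markers were 90.2, 3939 and 1594 in AAV-CTRL, against 190.3, 3380 and 1684 in AAV-VEGF-C. The first experiment was lowest in these markers in both groups, and Cpa3 and S100a8 were at 0 in both of its libraries. Fli1 was lowest in the first experiment in AAV-CTRL but not in AAV-VEGF-C, and the part of leukocyte RNA in these values was not tested.

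Foxo1, the forkhead factor that restrains endothelial growth, had 160.4, 98.1 and 115.6 normalised CPM in AAV-CTRL, against 71.6, 56.6 and 78.2 in AAV-VEGF-C. Every AAV-VEGF-C value lay below every AAV-CTRL value, and Foxo1 was lower in 3 of 3 experiments, by log2 ratios of -1.16, -0.79 and -0.56. The log2 fold change was -0.86 ± 0.30 (95% interval -1.55 to -0.17, unadjusted p = 0.0212, edgeR adjusted p = 0.110), and the two-sided exact permutation p was 0.1. Leaving out each library in turn kept the log2 fold change between -1.07 and -0.68. The adjusted p ranged from 0.0464 with no filter, the single alternative under 0.05, to 0.692 in drawn-down counts. The value is to be read against the median of -0.41 of genes whose mean TPM reached 5, and Foxo1 had the same order of libraries within each group as the fibroblast markers given with Foxc2.

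Because a ratio of 2 genes inside a library does not depend on scaling between libraries, 4 ratios of TPM were compared, each by an exact permutation test (two-sided). Nr2f2 over Prox1 was 2.02, 2.47 and 6.21 in AAV-CTRL, against 1.32, 1.85 and 3.93 in AAV-VEGF-C 1, 2 and 3. The ratio was lower in AAV-VEGF-C in 3 of 3 experiments, by 0.41 to 0.66 on the log2 scale (mean -0.56 ± 0.13, SD, n = 3). In counts the mean difference was -0.60 with a wider SD of 0.25. The ratio also differed between experiments within each group, and the groups overlapped (exact permutation p = 0.5 without pairing, adjusted p = 0.667 over the 4 ratios). Erg over Fli1 was 1.34, 0.433 and 0.632 in AAV-CTRL, against 0.627, 0.177 and 0.432 in AAV-VEGF-C. It too was lower in 3 of 3 experiments (mean log2 difference -0.98 ± 0.38), with overlapping groups (exact permutation p = 0.2 without pairing, adjusted p = 0.667). As a ratio of counts, that difference was -0.54. A fixed length of each gene cancels out of such a difference, and the source of the gap was not tested. Such ratios still depend on the mix of cells in a library. Within each group, Erg over Fli1 had the reverse order of libraries of the summed leukocyte markers given with Fli1. The part of the cell mix in the ratios was not tested. Paired within experiments, Nr2f2 over Prox1 and Erg over Fli1 each had an exact permutation p of 0.25, the smallest that 3 pairs allow, in a test added after the data were seen. Foxc2 over Prox1 was 2.12, 2.30 and 3.44 in AAV-CTRL, against 0.408, 1.23 and 4.35 in AAV-VEGF-C, which spanned the controls (exact permutation p = 0.5). Sox18 over Prox1 was 0.300, 0.690 and 3.56 in AAV-CTRL, against 0.262, 0.830 and 1.04 in AAV-VEGF-C, and these values overlapped as well (mean log2 difference -0.57, exact permutation p = 0.8). Without AAV-CTRL 3, the mean log2 difference was 0.42 for Sox18 over Prox1 and -0.070 for Nr2f2 over Prox1. In both groups, Nr2f2, Sox18 and Foxc2 were each lowest against Prox1 in the first experiment and highest in the third.

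The profile of Prox1 over the 6 libraries was compared with that of 6718 other genes whose mean TPM reached 5, as the mean absolute difference of log2(CPM + 1) after centring each gene on its own mean. The closest were Reln (0.152), which encodes the secreted glycoprotein reelin made by LECs, and Flt4 (0.199), the VEGF-C receptor gene. Ccl21d (0.239), a copy of the LEC chemokine gene Ccl21a, is uncertain because reads of near-identical copies cannot be told apart. Nectin2 (0.269), an adhesion molecule gene, and Unc5b (0.271), a netrin receptor gene, followed. Like Prox1, these 5 genes were highest in AAV-VEGF-C 1, and next highest in AAV-CTRL 1. In CPM, Reln was 411.0, 205.3 and 155.9 in AAV-CTRL, against 595.2, 221.6 and 118.6 in AAV-VEGF-C. All 6 libraries share their depth and purity between genes, so the likeness is a description.

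**Figure D4:**
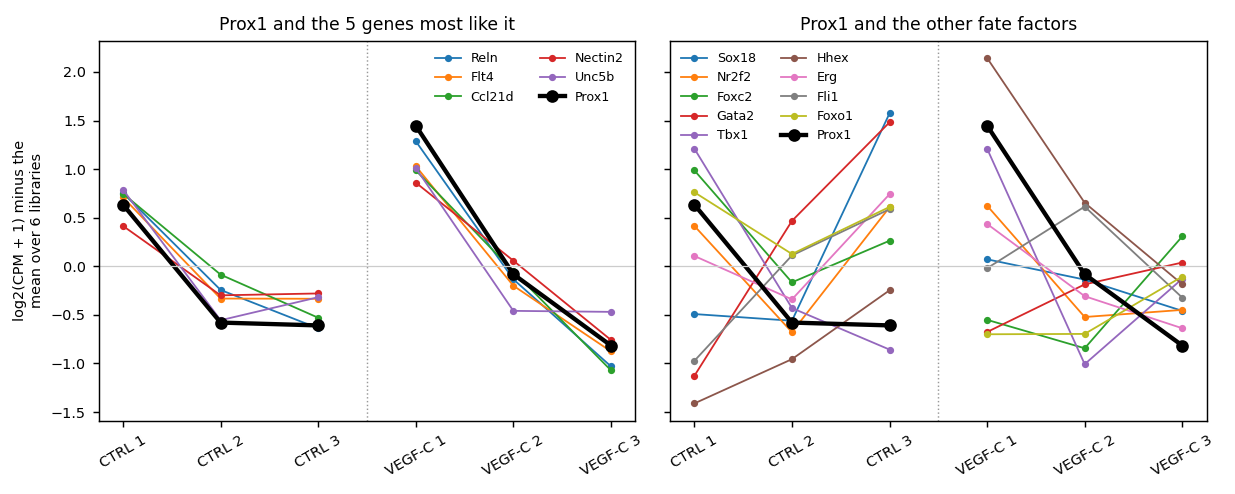
Log2(CPM + 1) of each gene minus its own mean over the 6 libraries (vertical axis), by library (horizontal axis); Prox1 is the thick black line, with the 5 genes most like it on the left and the other fate factors on the right. On the left all lines are highest in AAV-VEGF-C 1, whereas on the right Sox18 and Gata2 are highest in AAV-CTRL 3.

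The other fate factors were further from Prox1. Tbx1 (0.471) held rank 90, Nr2f2 (0.528) rank 134 and Erg (0.589) rank 221 of 6718. Hhex (0.808), Sox18 (0.853), Foxc2 (0.920), Foxo1 (0.921), Fli1 (1.03) and Gata2 (1.33) had ranks from 1253 to 5845. Of the sort markers, Pdpn (0.613) held rank 263 and Lyve1 (0.645) rank 347. Of the members, Tbx1, Nr2f2 and Erg were thus closer to Prox1 than these sort markers were, and Gata2 was furthest from it.

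Family relatives of the members showed whether a neighbouring gene of the same DNA-binding family differed. Of 24 relatives, 21 passed the filter on low counts, 4 were called higher in AAV-VEGF-C (Tbx4, Tbx5, Tbx20 and Foxo6) and 0 were called lower by edgeR. Over all tested genes, edgeR called 10.5% higher and 0.659% lower. At an unadjusted p under 0.05, 5 relatives were higher and 0 lower, where 19.0% and 9.11% of all tested genes were. DESeq2 called 7 of 23 relatives higher and 0 lower, against 5586 higher and 481 lower of 30053 genes. The 4 genes called were all scarce. Tbx5, a heart and forelimb factor, had 8, 6 and 0 counts in the controls and 17, 37 and 43 after AAV-VEGF-C, or 0.177, 0.121 and 0 TPM against 1.79, 2.86 and 1.69. Tbx4, a hindlimb factor, had 8, 6 and 5 counts against 72, 5 and 32, or 0.239, 0.163 and 0.111 TPM against 9.72, 0.453 and 1.35, so that AAV-VEGF-C 2 lay above the controls in TPM by a value that rests on 5 counts. These 4 genes passed the filter through AAV-VEGF-C libraries, the libraries in which families without a known endothelial role had 0.331 to 0.360 TPM per gene against 0.0237 to 0.0343 in AAV-CTRL, and the part of such reads was not tested. Leaving out each library in turn left 1 relative called without AAV-CTRL 1, 2 without AAV-VEGF-C 1 and 0 without any of the other 4. When genes were kept by a mean TPM of 5 or more, 8 relatives were tested and 0 were called in either direction, also at an unadjusted p under 0.05.

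Relatives with an endothelial role were not called. Sox7 and Sox17, the partners of Sox18 in the SOXF group, had log2 fold changes of -0.31 ± 0.61 (edgeR adjusted p = 0.788) and -0.02 ± 0.59 (0.989). Foxc1, which acts together with Foxc2, had -0.74 ± 0.43 (0.305), close to the value of Foxc2. Nr2f1 had -0.29 ± 0.32 (0.606) and Ets1 -0.44 ± 0.39 (0.501).

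Of 17 other regulators of endothelial identity, 17 were tested and 0 were called by edgeR, where 10.5% of all tested genes were called higher and 0.659% lower. At an unadjusted p under 0.05, 0 of the 17 were higher and 3 were lower, where 19.0% of all tested genes were higher and 9.11% lower. These 3 were the transcriptional co-activator genes Yap1 (-0.85 ± 0.32), Wwtr1 (-0.87 ± 0.30) and Ctnnb1 (-0.91 ± 0.30), with edgeR adjusted p from 0.0955 to 0.134. Tead1, which encodes a DNA-binding partner of YAP1 and WWTR1, had 0.25 ± 0.46 (edgeR adjusted p = 0.777). DESeq2 called 1 of the 17. The valve factor Nfatc1 had -0.08 ± 0.27 (edgeR adjusted p = 0.882).

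Of 19 genes known to act downstream of the members, 18 were tested and edgeR called 0, where it called 10.5% of all tested genes higher and 0.659% lower. At an unadjusted p under 0.05, 0 were higher and 1 was lower, where 19.0% and 9.11% of all tested genes were. That gene was the ERG target Icam2 (-1.41 ± 0.56, edgeR adjusted p = 0.151). Without AAV-CTRL 1 or without AAV-VEGF-C 1, 1 of the downstream genes was called. For Flt4, a PROX1 target, the log2 fold change was 0.35 ± 0.65 (adjusted p = 0.774). The sort markers Lyve1 and Pdpn had 0.01 ± 0.51 (0.997) and -0.60 ± 0.44 (0.415). The medians of the lists were -0.02 for the family relatives, -0.27 for the other regulators and -0.22 for the downstream genes, each between -0.0037 over all tested genes and -0.41 over those whose mean TPM reached 5.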

How the data were processed

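RNA was measured in 6 libraries of sorted dural LECs. The files deposited by the authors hold estimated counts, with no scaling between libraries, and TPM, corrected for gene length and library total. The submitters' processing notes name FastQC, Trimmomatic, DRAGEN and Picard and the mm10 build; their roles, the use of strand or molecular identifiers in counting and the gene annotation are not given in the sources used here. Of 55401 identifiers, 99.5% equal those of GENCODE M21 without their version.

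Counts were rounded, filtered by filterByExpr, scaled by TMM and tested with edgeR 4.0.16 in R 4.3.3, with adjustment over all tested genes. DESeq2 1.42.0 (the study's tool) and limma 3.58.1 were alternatives, with pseudocounts of 1 and 0.1 on log2 TPM. The other alternatives changed scaling, filters, depth, threshold, pairing and libraries. Levels and ratios were compared by exact permutation tests. Intervals of CPM are Wilson 95% intervals. Those of edgeR log2 fold changes are 95% t intervals, with standard errors derived from the fold change and the F statistic of the test. The edgeR script was tested on simulated data.

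Replicate numbers mark experiments in the labels. Same-numbered libraries deviated together (correlations across genes of 0.369, 0.28 and 0.155), but AAV-CTRL 3 correlated more with AAV-VEGF-C 2 (0.216). The pairing therefore rests on the labels. No 2 libraries of a group agreed within sampling noise. Totals of 564475 to 12399498 limit scarce genes of AAV-VEGF-C most. With 3 pools per group, p-values set the group difference against the spread between pools. Without the replicate block, that spread also holds differences between experiments.

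The genes named are the members, the called genes of each related list where these were 6 or fewer, 10 further genes of those lists, and the 5 genes most like Prox1; 1 of the further genes is not reported here. Genes past an unadjusted p alone were named after their values were seen. The members and lists were chosen with earlier results of these data known.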

Additional observations from a re-analysis of the deposited data

How the results depend on the processing

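Depth limited the AAV-VEGF-C libraries most, and 2 members, Sox18 and Gata2, did not pass the filter once counts were drawn down to the smallest total. The number of members called higher was 1 (Hhex) with DESeq2, with no filter, with scaling on the 2000 most abundant genes and with an adjusted p under 0.1, and 0 in the other alternatives. The number called lower was 1 (Foxo1) with no filter and 0 in the others. Leaving out each library in turn gave 0 called in each direction. Hhex stayed higher and Foxo1, Foxc2 and Gata2 stayed lower in every alternative run. The log2 fold changes of the other 6 members, none of them called, changed sign as follows, and the cause was not tested.

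With limma on log2(TPM + 1) and log2(TPM + 0.1), Prox1 had -0.67 and -0.78, Nr2f2 -1.28 and -1.35, Tbx1 -0.82 and -0.98, and Fli1 -0.74 and -0.79. With limma on TPM rescaled to protein-coding genes, an alternative chosen after seeing the data, Nr2f2 had -0.28. With voom and sample weights, Prox1 had -0.037, Nr2f2 -0.29 and Tbx1 -0.089. Nr2f2 had -0.21 with library size alone, -0.031 with DESeq2 and -0.30 with no filter, where Tbx1 had -0.15. Erg had 0.34 with scaling on the 2000 most abundant genes, 0.25 when genes under a mean TPM of 5 were left out and 0.26 in drawn-down counts. Leaving out each library in turn gave -0.39 to 1.39 for Prox1, -0.87 to 0.32 for Sox18, -0.71 to 0.21 for Nr2f2, -0.85 to 1.14 for Tbx1, -0.72 to 0.091 for Erg and -0.070 to 0.47 for Fli1.

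With the experiment as a replicate block, the log2 fold change of Nr2f2 was -0.065, those of Hhex and Foxo1 were 1.92 (adjusted p = 0.0738) and -0.82 (adjusted p = 0.0752), and that of Prox1 was 0.54 with a standard error of 0.31 in place of 0.74. The block changed no call among the members, the other regulators and the downstream genes. It left 3 relatives called in place of 4, and it called 2241 genes higher and 362 lower.

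The counts over all tested genes moved most. The number called higher was 9382 with no filter, 5586 with DESeq2, 1112 with limma on log2(TPM + 1), 937 with limma on rescaled TPM, 14 in drawn-down counts, 9 with a mean TPM minimum of 5 and 0 to 1771 without single libraries. The number called lower was 1175 with no filter, 578 with an adjusted p under 0.1, 481 with DESeq2, 434 with limma on log2(TPM + 1), 267 with voom, 53 with library size alone, 37 with limma on rescaled TPM, 8 with scaling on the 2000 most abundant genes, 0 when genes under a mean TPM of 5 were left out, 0 in drawn-down counts and 0 to 48 without single libraries. Family relatives called were 8 with no filter, 7 with DESeq2, 2 with limma on log2(TPM + 0.1), 2 with voom, 1 with limma on log2(TPM + 1), 0 with a mean TPM minimum of 5, 0 in drawn-down counts and 0 to 2 without single libraries. Other endothelial regulators called were 2 with no filter, 1 each with DESeq2, voom and an adjusted p under 0.1. Downstream genes called were 3 with no filter and 0 to 1 without single libraries. Differences of mean TPM and normalised CPM and the 4 ratios moved by less than 1 SD in all 152 alternatives run, but this rule could hardly fail. Leaving out 1 of 3 libraries cannot move a group mean by 1 SD of its group, and the replicate block keeps the mean difference of a ratio. Only the ratios of counts could have moved further, and these SDs were wide. The difference of mean normalised CPM of Prox1 was 48.6 with an SD of 107.6, and -13.0 without AAV-VEGF-C 1. Leaving out each library in turn gave mean log2 differences of -1.01 to -0.070 for Nr2f2 over Prox1, -1.36 to 0.42 for Sox18 over Prox1, -1.85 to -0.15 for Foxc2 over Prox1 and -1.37 to -0.46 for Erg over Fli1.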
